A study of Mus musculus with 6 samples.

Results

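Cyclins, cyclin-dependent kinases (CDKs), CDK inhibitors, the Cdc25 phosphatases, the E2F transcription factors and the retinoblastoma (pocket) proteins were examined in the mouse cell line HL-1. Genes were taken by their mouse symbols, as a set proposed with earlier results of these data known. That gave 62 of the 22246 genes in the expression table. 4 further genes with such symbols, Ccna1, Ccnb3, Cdkn2a and Cdkn2b, were not among those 22246 genes and have no value here. Of the 62, 58 had a mean of at least 1 FPKM (fragments scaled to gene length and library size) over the 6 libraries and were tested. The 4 below that level were Cdkn1c (0.0193 to 0.2605 FPKM), Cdk15 (0 to 0.0944 FPKM), Ccnb1ip1 (0.418 to 0.813 FPKM) and Ccno (0.592 to 1.16 FPKM).

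The study set side by side 3 libraries of cells with a control shRNA (short hairpin RNA) and 3 of cells with an shRNA against Smyd4, a gene for a SET and MYND domain protein. Both groups are labelled HL-1, tissue heart, strain C57BL/6, and the labels name no time, dose or clone. HL-1 is an established line that descends from a mouse atrial tumour driven by SV40 large T antigen under an atrial natriuretic factor promoter. Large T is a protein that binds the pocket proteins and p53. Whether separate cultures stand behind the 3 libraries of a group is not labelled, and p-values here reflect spread among these libraries alone, which may be technical. Each library held between 20755024 and 26387004 recovered reads.

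D-type cyclins bind Cdk4 and Cdk6 early in G1, and cyclin E with Cdk2 follows. Together these kinases phosphorylate the pocket proteins Rb1, Rbl1 and Rbl2, which then let go of E2F factors. Freed activating E2Fs switch on genes of DNA replication, among them the genes of other cyclins and E2Fs. Inhibitors of the INK4 class hold Cdk4 and Cdk6, and those of the CIP/KIP class bind whole cyclin-CDK complexes. Other members of both families act on RNA polymerase II or in differentiated cells rather than on division. Adult cardiomyocytes rarely divide, whereas HL-1 cells are grown as a dividing line.

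The targeted gene checks the labels and did not differ detectably between the groups. Smyd4 stood at 12.5, 12.8 and 13.5 FPKM in the control libraries and at 12.6, 12.3 and 11.9 FPKM in those labelled Smyd4 shRNA. The ranges overlapped, and the means were 12.9 ± 0.539 and 12.3 ± 0.348 FPKM (SD, n = 3 each). The difference did not pass the test (log2 change -0.07, standard error 0.04, limma adjusted p = 0.173), and permuting the 6 values (exact test, two-sided) gave p = 0.2, where 0.1 is the smallest that 3 against 3 libraries allow. The treated group is therefore called the libraries labelled Smyd4 shRNA. The cell type label was checked against 14 cardiomyocyte markers, of which 12 were in the table and 4 reached 1 FPKM in at least 1 library (Tnnt2, Gata4, Nkx2-5 and Nppb). Myh6, Myh7, Myl7, Tnni3, Actc1, Ryr2, Pln and Tbx5 were below 1 FPKM in every library, so most defining markers of an atrial cardiomyocyte were near absent in both groups. The summed level of the cardiomyocyte list was 20.3 to 22.1 FPKM in control and at least 28.2 in the libraries labelled Smyd4 shRNA. Within it Tnnt2 went from 7.11 to 11.7 FPKM and Nkx2-5 from 3.57 to 7.68, while Nppb went from 2.15 to 0.484. Marker sums of other cell types also separated the groups. Skeletal muscle markers (4 of 7 at 1 FPKM, including Myod1 and Myf5, with Myog, Myf6 and Myh3 below it) summed to 80.4 to 83.3 against 20.5 to 21.4 FPKM. Neuronal markers (4 of 5, Syp below 1 FPKM) summed to 148 to 156 against 29.4 to 31.3 FPKM. Smooth muscle markers (4 of 6, Myh11 and Cnn1 below) summed to 456 to 472 against 316 to 327 FPKM. The largest single values in these sums were Chrna1 (skeletal muscle) at 49.9 and 9.59 FPKM, Tubb3 (neuron) at 100 and 24.1, and Acta2 (smooth muscle) at 292 and 196. Myod1 was at 18.8 and 5.31 FPKM and Myf5 at 8.68 and 4.83. The smooth muscle marker Smtn, at 18.7 and 17.8 FPKM, did not pass the test (limma adjusted p = 0.217). Fibroblast markers (5 of 9, with Lum, Postn, Tcf21 and Thy1 below) summed to 239 to 246 against 270.3 to 282 FPKM, and macrophage markers (3 of 6, with Ptprc, Adgre1 and Csf1r below 1 FPKM) to 29.2 to 30.6 against 21.4 to 23.2 FPKM. The fibroblast markers did not move together, with Col1a1 at 37.6 and 69.3 FPKM and Col1a2 at 60.5 and 84.9, but Dcn at 26.3 and 1.72 and Pdgfra at 4.35 and 2.94. Among macrophage markers, Cd14 was at 27.9 and 18.6 FPKM and Lyz2 at 0.228 and 1.69. The second Lyz2 mean came mostly from replicate 3 of the libraries labelled Smyd4 shRNA, at 3.74 FPKM, with 0.544 and 0.781 in the others. None of the 7 endothelial markers reached 1 FPKM in any library, and their sums were 0.133 to 0.179 against 0.0578 to 0.742 FPKM. Each of the 7 had its highest value in replicate 3 of the libraries labelled Smyd4 shRNA, for example Cdh5 at 0.315 FPKM. No marker found in the expression table was at 0 in every library. Nppa and Actn2 of the cardiomyocyte list were not found there by symbol and have no value here. The same holds for Ckm (skeletal muscle), Itgam (macrophage), and Rbfox3 and Snap25 (neuron). The part of these marker shifts in the results that follow was not tested. In bulk RNA, fewer cells of a type and less RNA per cell cannot be told apart.

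In several small families of the cell cycle genes, members moved in opposite directions. Cyclin D1 and D2 rose while D3 fell, Cdk4 and Cdk2 rose while Cdk6 fell, E2f1 rose while E2f2 and E2f3 fell, and Rbl1 rose while Rbl2 fell. The inhibitor gene Cdkn1a fell and Cdkn2c rose. Other groups moved 1 way: E2f4, E2f5 and E2f6 all rose, and Ccng1, Ccng2 and Ccni all fell. The mitotic kinase Cdk1 and its B cyclins did not pass the test. By limma with Benjamini-Hochberg adjustment over all 11325 genes tested and a threshold of 0.05, 15 of the 58 members passed as higher with the Smyd4 shRNA label and 15 as lower, or 51.7%. The background was of like size, since 48.3% of all tested genes passed, 25.1% as higher and 23.3% as lower. The share of members called is near that background and is not a result about the members. With calls in both directions this common, mixed signs within a family are not shown to be particular to these genes. Their median log2 change was 0.03, against 0.02 over all tested genes. The changes were small. Among called genes the median absolute log2 change was 0.18 for members and 0.24 for all genes, and 1 member, Ccng2, was called with a change above 1.5-fold (1.72% of members, against 6.91% of all genes). Values of the 3 control and the 3 other libraries did not overlap for 38 of the 58 members (65.5%, against 57.8% of all tested genes), including all 30 called members.

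The libraries of a group were close to each other, with a median SD of 0.04 on the log2 scale, and each tested member had at least 136 reads in every library. On reads recovered from the values, edgeR's quasi-likelihood test called 14 of 60 members higher and 17 lower, where it called 49.5% of 13765 genes. DESeq2 called 12 of 62 members higher and 15 lower, where it called 32.1% of 17500 genes. These gene bases are larger than the 11325 of the limma test and take in lower genes. A member share set against them is therefore not on a like base. The authors' deposited table of called genes lists 27 members, 12 with a higher and 15 with a lower value, and all 27 were called in the same direction here. The 3 called here but not listed there were Cdk16, E2f5 and E2f6. Gene positions given with the members are on GRCm38, from the authors' table or GENCODE M21. 24 of the 62 members, and 12 of the 30 called, share exonic bases with another gene of the table in the GENCODE M21 annotation. Except for Ccnb1ip1 with Rpph1, the neighbour lies on the opposite strand. Examples among called members are Ccnd1 (1100 bases), Rbl2 with Aktip (693 bases), Cdk4 with Tspan31 (641 bases) and Ccna2 with Exosc9 (510 bases). Whether counting used strand was not given in the sources used here, so reads of such pairs may be mixed.

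**Figure D1:**
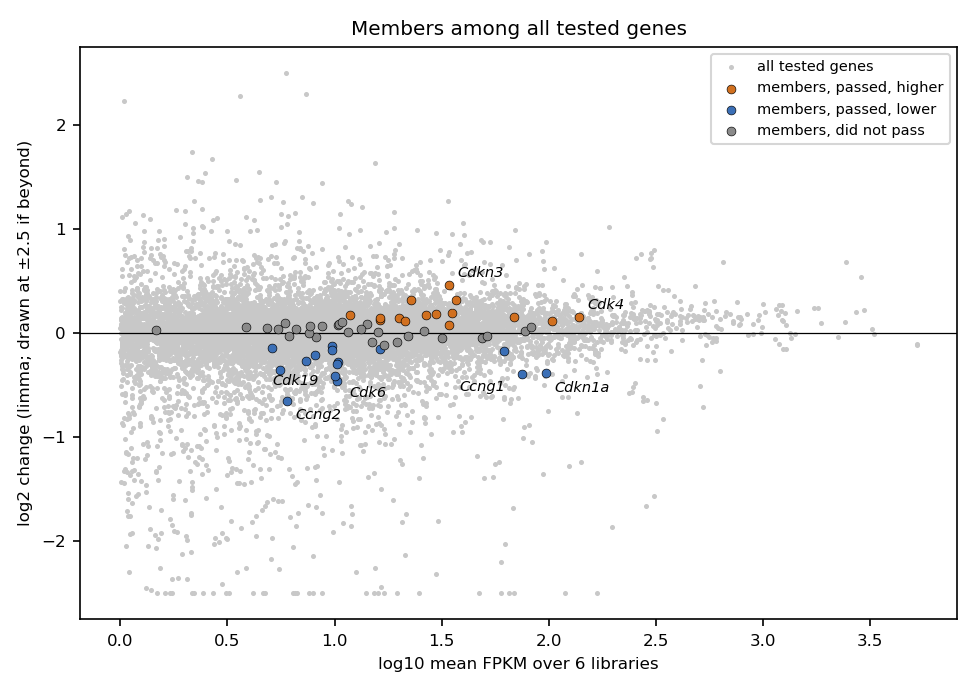
Members among all 11325 tested genes, by log10 mean FPKM over the 6 libraries (x axis) and log2 change, labelled Smyd4 shRNA minus control (y axis, values beyond ±2.5 drawn at the edge). Grey dots are all tested genes and coloured circles the 58 tested members. The members lie within the cloud of all genes, Ccng2 lowest at -0.65 and Cdkn3 highest at 0.46.

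Promoter sequences are shown for 7 members because E2F factors and the pocket protein complexes act on many of these genes through short promoter elements. Windows from 250 bases before to 50 after each RefSeq start (GRCm38.p6) were at hand for 48 of the 62 members, 54 windows in all. These were 10 of the members called higher, 13 of those called lower, 22 not called and 3 not tested. The called members Ccnd1, Ccnd2, Ccna2, E2f4, E2f5, Cdk17 and Cdk19 had no window and were not searched. Some starts lie inside the gene's span, as for E2f1 and for a downstream start of E2f2. Such windows are not the sequence before the gene. Both strands were searched for an E2F-type element (TTTCCCGC, TTTCGCGC, TTTGCCGC or TTTGGCGC), for TTTGAA, the core of the cell cycle homology region (CHR) of late cell cycle genes, and for CCAAT. Each was counted on its own, whether or not it overlapped another. The E2F-type element was in 7 of the 54 member windows (13%), against 2.26% of the 32851 windows in the table. TTTGAA was in 18.5% against 17.9%, and CCAAT in 50% against 37.4%. By call, CCAAT was in 6 of 12 windows of members called higher, 5 of 17 of those called lower and 16 of 22 of those not called. Such a match describes the letters and shows no binding, and no match says only that these letters are not in the window.

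Genes with an E2F-type match were called in either direction or not at all. They were Cdk2 and Rbl1 (higher), E2f2 and E2f3 (lower), and Cdc25a, Cdk1 and E2f7 (not called). For TTTGAA they were Ccnf, Cdk16 and Cdkn3 (higher), Ccni, E2f2, E2f3 and Rbl2 (lower), and Ccnb2, Cdk1 and E2f8 (not called). The 250 bases before the start of 7 of these genes follow, 5′ to 3′ on the gene's strand, with E2F-type and TTTGAA matches of either strand in capitals. For Cdk2, higher with an E2F-type match, they are chr10:128705052-128705301, minus strand. For Rbl1, also higher with one, they are chr2:157204535-157204784, minus strand. For E2f3, lower with an E2F-type match beside TTTGAA in 1 of its 2 windows, they are chr13:29986064-29986313, minus strand. For E2f7, not called, with an E2F-type match, they are chr10:110745189-110745438, plus strand. For Ccnf, higher with 2 TTTGAA matches, they are chr17:24251410-24251659, minus strand. For Cdkn3, higher with 1, they are chr14:46760291-46760540, plus strand. For Rbl2, lower with 1, they are chr8:91069807-91070056, plus strand.
Cdk2: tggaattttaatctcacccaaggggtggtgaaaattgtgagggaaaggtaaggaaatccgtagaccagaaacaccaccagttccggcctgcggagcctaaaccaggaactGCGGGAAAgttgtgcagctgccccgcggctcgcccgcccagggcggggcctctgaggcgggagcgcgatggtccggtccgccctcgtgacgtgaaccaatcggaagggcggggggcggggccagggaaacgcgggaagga
Rbl1: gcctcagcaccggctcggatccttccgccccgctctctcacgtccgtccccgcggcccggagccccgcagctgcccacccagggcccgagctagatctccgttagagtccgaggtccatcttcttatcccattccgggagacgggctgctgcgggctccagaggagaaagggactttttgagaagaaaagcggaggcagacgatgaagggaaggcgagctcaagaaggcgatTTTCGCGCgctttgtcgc
E2f3: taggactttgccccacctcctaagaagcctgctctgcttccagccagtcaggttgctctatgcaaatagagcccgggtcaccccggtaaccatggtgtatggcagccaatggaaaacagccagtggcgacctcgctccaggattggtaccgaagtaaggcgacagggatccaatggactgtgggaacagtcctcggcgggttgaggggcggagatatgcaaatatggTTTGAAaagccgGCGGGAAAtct
E2f7: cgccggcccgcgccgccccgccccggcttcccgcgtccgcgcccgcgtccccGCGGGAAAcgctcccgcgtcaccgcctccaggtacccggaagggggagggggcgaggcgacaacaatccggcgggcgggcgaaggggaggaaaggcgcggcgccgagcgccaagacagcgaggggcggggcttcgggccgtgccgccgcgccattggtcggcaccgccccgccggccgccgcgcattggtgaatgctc
Ccnf: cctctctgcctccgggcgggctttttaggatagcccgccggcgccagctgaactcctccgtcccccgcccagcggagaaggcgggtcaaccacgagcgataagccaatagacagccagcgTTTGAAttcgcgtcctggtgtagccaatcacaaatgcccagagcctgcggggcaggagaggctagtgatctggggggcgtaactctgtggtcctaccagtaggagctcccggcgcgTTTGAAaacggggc
Cdkn3: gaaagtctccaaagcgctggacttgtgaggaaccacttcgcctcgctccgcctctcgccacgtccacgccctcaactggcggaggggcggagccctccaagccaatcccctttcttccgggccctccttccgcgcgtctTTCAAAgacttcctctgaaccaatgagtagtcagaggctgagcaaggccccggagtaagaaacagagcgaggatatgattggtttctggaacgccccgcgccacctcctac
Rbl2: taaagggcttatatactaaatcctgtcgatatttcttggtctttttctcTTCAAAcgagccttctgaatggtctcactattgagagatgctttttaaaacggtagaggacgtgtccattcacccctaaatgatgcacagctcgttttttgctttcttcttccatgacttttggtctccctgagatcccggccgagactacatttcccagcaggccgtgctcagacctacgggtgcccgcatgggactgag

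The D cyclins carry growth signals to the cell cycle by activating Cdk4 and Cdk6, and all 3 were called, 2 higher and 1 lower. Ccnd1 (chr7:144929931-144939925, minus strand) stood at 98.6, 99.8 and 98.98 FPKM in the control libraries and at 109, 107 and 106 FPKM in those labelled Smyd4 shRNA. Ccnd2 (chr6:127125162-127152193, minus strand) stood at 20.3, 20.4 and 19.9 FPKM in the control libraries and at 25.2, 25.2 and 25.5 FPKM in those labelled Smyd4 shRNA. Ccnd3 (chr17:47505051-47599691, plus strand) stood at 11.5, 11.2 and 11.5 FPKM in the control libraries and at 9.59, 9.02 and 9.30 FPKM in those labelled Smyd4 shRNA. For each of them the groups did not overlap, with Ccnd1 and Ccnd2 high and Ccnd3 low in the libraries labelled Smyd4 shRNA. Ccnd2 rose by 25.3% (log2 change 0.32, standard error 0.03, limma adjusted p = 3.09e-05) and Ccnd1, the most abundant of the 3 per length, by 8.43% (log2 change 0.12, standard error 0.02, limma adjusted p = 0.00434). Ccnd3 fell by 18.4% (log2 change -0.28, standard error 0.03, limma adjusted p = 0.000325). As a share of the summed D cyclin FPKM, Ccnd2 made up 15.4 ± 0.180% in control and 17.8 ± 0.318% in the libraries labelled Smyd4 shRNA, and Ccnd3 8.72 ± 0.148% and 6.55 ± 0.139% (SD, n = 3). The share of Ccnd1 was 75.8% and 75.6%. Their sum was 130.7 ± 0.572 and 142 ± 1.90 FPKM.

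Of the kinases of G1 and S phase entry, Cdk4 and Cdk6 pair with D cyclins and Cdk2 with cyclins E and A. All 3 were called. Cdk4 (chr10:127063534-127067920, plus strand) stood at 128, 131 and 135 FPKM in the control libraries and at 149, 145 and 144 FPKM in those labelled Smyd4 shRNA. Cdk2 (chr10:128697939-128705051, minus strand) stood at 28.9, 28.1 and 26.4 FPKM in the control libraries and at 31.8, 31.4 and 31.8 FPKM in those labelled Smyd4 shRNA. Cdk6 (chr5:3341485-3531008, plus strand) stood at 11.8, 12.5 and 11.6 FPKM in the control libraries and at 8.57, 8.95 and 8.22 FPKM in those labelled Smyd4 shRNA. No value of one group fell within the other's range, Cdk6 being low and the other two high in the libraries labelled Smyd4 shRNA. Cdk6 fell by 28.4% (log2 change -0.46, standard error 0.04, limma adjusted p = 8.09e-05). Cdk4 rose by 11.2% (log2 change 0.15, standard error 0.03, limma adjusted p = 0.00248), and Cdk2 by 14.04% (log2 change 0.19, standard error 0.04, limma adjusted p = 0.00355). Per length, the Cdk4 level was 11.0 ± 0.584 times that of Cdk6 in control and 17.0 ± 0.755 times in the libraries labelled Smyd4 shRNA (SD, n = 3).

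Cyclins E1 and E2 activate Cdk2 at the start of S phase, and cyclin A2 does so during it. Ccna2 (chr3:36564865-36572150, minus strand) stood at 64.96, 65.7 and 64.99 FPKM in the control libraries and at 71.1, 73.7 and 72.8 FPKM in those labelled Smyd4 shRNA. Ccne1 (chr7:38097984-38107534, minus strand) stood at 11.6, 10.6 and 11.9 FPKM in the control libraries and at 9.21, 8.56 and 9.71 FPKM in those labelled Smyd4 shRNA. Both separated the groups, Ccna2 being high and Ccne1 low in the libraries labelled Smyd4 shRNA. Ccna2 rose by 11.2% (log2 change 0.15, standard error 0.02, limma adjusted p = 0.00131). Ccne1 fell by 19.5% (log2 change -0.30, standard error 0.06, limma adjusted p = 0.00338). Ccne2 had means of 11.5 ± 0.264 FPKM in control and 11.5 ± 0.234 in the libraries labelled Smyd4 shRNA (limma adjusted p = 0.837). Ccne1 was thus 49.8 ± 1.03% of the cyclin E sum in control and 44.2 ± 1.61% in the libraries labelled Smyd4 shRNA (SD, n = 3).

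Of 7 tested mitotic members, 1 was called. Cyclin F, encoded by Ccnf, is the substrate-binding part of an SCF ubiquitin ligase and binds no CDK. Ccnf (chr17:24223232-24251409, minus strand) stood at 25.9, 24.9 and 24.6 FPKM in the control libraries and at 28.9, 27.3 and 29.1 FPKM in those labelled Smyd4 shRNA. The groups did not overlap, all 3 libraries labelled Smyd4 shRNA being the higher ones. Ccnf rose by 13.4% (log2 change 0.18, standard error 0.04, limma adjusted p = 0.00408). Cdk1, the kinase that drives mitosis, had means of 80.8 ± 1.36 FPKM in control and 83.9 ± 2.09 in the libraries labelled Smyd4 shRNA (adjusted p = 0.146, with the groups apart). Ccnb1, its B1 cyclin, had 52.01 ± 1.35 FPKM in control and 50.9 ± 1.61 in the libraries labelled Smyd4 shRNA (adjusted p = 0.444), and Ccnb2 had 76.6 ± 1.25 FPKM in control and 77.9 ± 2.35 in the libraries labelled Smyd4 shRNA (adjusted p = 0.531). The Cdc25 phosphatases, which remove the inhibitory phosphates from CDKs, did not pass either. Their group means were 5.64 and 6.06 FPKM for Cdc25a, 32.2 and 31.0 for Cdc25b, and 15.9 and 15.97 for Cdc25c (adjusted p = 0.135, 0.135 and 0.944). For all 28 uncalled members the 95% interval of the log2 change lay between -0.22 and 0.21. That is on the scale of log2(FPKM + 0.5), so as percent of FPKM the bounds are wider, most of all for low genes. These intervals do not show the groups to be equal.

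**Figure D2:**
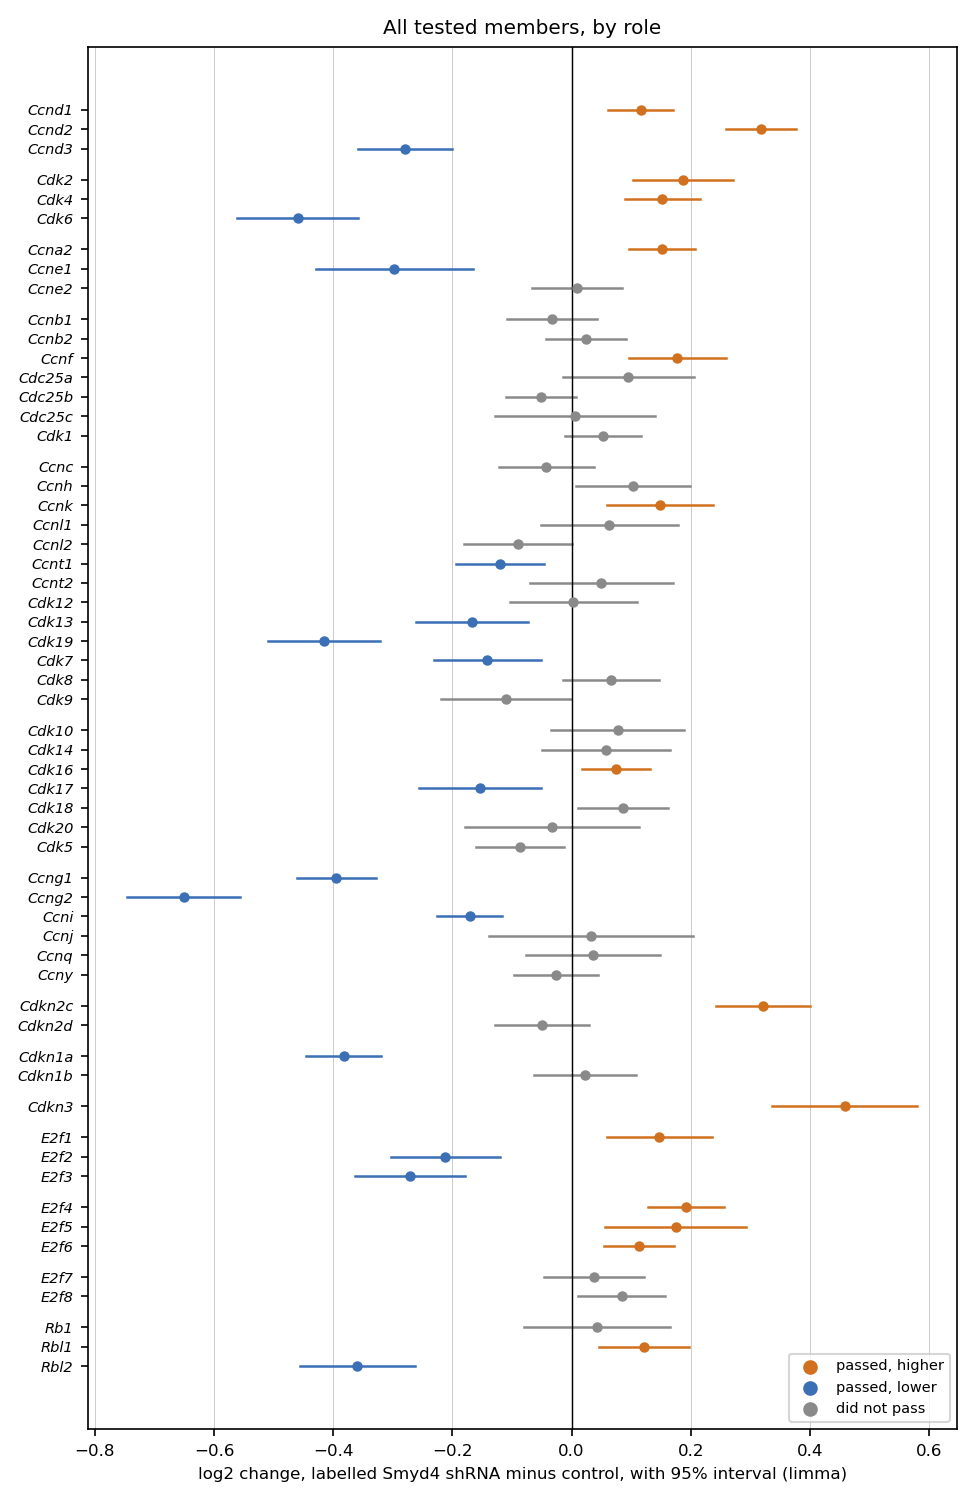
Log2 change of the 58 tested members, labelled Smyd4 shRNA minus control (x axis, limma, with 95% intervals), grouped by role. Orange marks the 15 that passed as higher, blue the 15 that passed as lower and grey the 28 that did not pass. Opposite signs stand side by side within the D cyclins, the G1 kinases, the activating E2Fs and the pocket proteins.

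Among CDK inhibitors the 2 called genes moved oppositely. Cdkn1a encodes p21, a CIP/KIP inhibitor and a classic p53 target, and Cdkn2c encodes p18, an INK4 inhibitor of Cdk4 and Cdk6. Cdkn1a (chr17:29090979-29100722, plus strand) stood at 109, 109 and 109 FPKM in the control libraries and at 86.1, 81.3 and 83.9 FPKM in those labelled Smyd4 shRNA. Cdkn2c (chr4:109660876-109667189, minus strand) stood at 33.6, 31.6 and 33.2 FPKM in the control libraries and at 42.3, 39.98 and 40.9 FPKM in those labelled Smyd4 shRNA. Neither gene's groups overlapped: Cdkn1a was low and Cdkn2c high in every library labelled Smyd4 shRNA. Cdkn1a fell by 23.4% (log2 change -0.38, standard error 0.03, limma adjusted p = 1.51e-05). Cdkn2c rose by 25.3% (log2 change 0.32, standard error 0.03, limma adjusted p = 0.000148). Their ratio went from 3.34 ± 0.110 to 2.04 ± 0.0114 (SD, n = 3). The INK4 gene Cdkn2d (p19) had means of 49.4 ± 1.63 FPKM in control and 47.7 ± 1.43 in the libraries labelled Smyd4 shRNA (adjusted p = 0.270). The CIP/KIP gene Cdkn1b (p27) had 26.1 ± 1.04 FPKM in control and 26.5 ± 0.749 in the libraries labelled Smyd4 shRNA (adjusted p = 0.653). Summed over these 4 inhibitors the level was 217.5 ± 1.19 and 199 ± 4.07 FPKM, and the share of Cdkn1a in it was 50.2 ± 0.220% and 42.1 ± 0.419%. Cdkn1c was near 0 in every library. The INK4 genes Cdkn2a and Cdkn2b have no value here and are not in that sum.

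Cdkn3 encodes a phosphatase that removes the activating phosphate of CDKs, and it had the largest rise of any tested member. Cdkn3 (chr14:46760541-46771525, plus strand) stood at 27.7, 29.4 and 28.98 FPKM in the control libraries and between 36.6 and 42.5 FPKM in those labelled Smyd4 shRNA, in replicates 2 and 3, with replicate 1 in between. The lowest library labelled Smyd4 shRNA lay above the highest control library, and the spread in the former group was the wider one. Cdkn3 rose by 38.3% (log2 change 0.46, standard error 0.05, limma adjusted p = 0.000226).

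The activating E2Fs, E2f1, E2f2 and E2f3, recruit coactivators to S phase genes once the pocket proteins let go. All 3 were called, E2f1 as higher and the other two as lower. E2f1 (chr2:154559407-154569892, minus strand) stood at 18.9, 19.3 and 18.7 FPKM in the control libraries and at 22.1, 21.01 and 20.2 FPKM in those labelled Smyd4 shRNA. E2f2 (chr4:136172394-136196057, plus strand) stood at 8.57, 8.85 and 8.91 FPKM in the control libraries and at 7.18, 7.64 and 7.72 FPKM in those labelled Smyd4 shRNA. E2f3 (chr13:29906575-29985668, minus strand) stood at 8.05, 8.35 and 7.91 FPKM in the control libraries and at 6.39, 6.80 and 6.69 FPKM in those labelled Smyd4 shRNA. The groups stood apart for each gene, although the lowest E2f1 value in the libraries labelled Smyd4 shRNA was close to the highest control value. E2f1 rose by 11.1% (log2 change 0.15, standard error 0.04, limma adjusted p = 0.0138). E2f2 fell by 14.4% (log2 change -0.21, standard error 0.04, limma adjusted p = 0.00299). E2f3 fell by 18.2% (log2 change -0.27, standard error 0.04, limma adjusted p = 0.000865). The sum of the 3 was 35.9 ± 0.580 FPKM in control and 35.2 ± 0.609 FPKM in the libraries labelled Smyd4 shRNA, while the share of E2f1 in it was 52.9 ± 0.251% and 59.9 ± 1.91% (SD, n = 3). Before a start, E2f3 has an E2F-type and a TTTGAA match in 1 window. E2f2 has its E2F-type match after a start. Its TTTGAA match is before another start that lies inside the gene (window chr4:136180532-136180831). The E2f1 window (chr2:154569377-154569676) holds neither, but it lies inside the gene as placed above. It does not cover the bases before the gene's 5′ end.

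The repressing E2Fs, E2f4, E2f5 and E2f6, were called higher. E2f4 and E2f5 act with Rbl1 and Rbl2, and E2f6 acts with Polycomb group proteins and needs no pocket protein. E2f4 (chr8:105297663-105305369, plus strand) stood at 33.1, 33.3 and 32.2 FPKM in the control libraries and at 38.2, 37.7 and 36.8 FPKM in those labelled Smyd4 shRNA. E2f5 (chr3:14578641-14606309, plus strand) stood at 10.5, 11.9 and 10.8 FPKM in the control libraries and at 12.004, 12.7 and 12.8 FPKM in those labelled Smyd4 shRNA. E2f6 (chr12:16810963-16839742, plus strand) stood at 20.2, 20.3 and 20.6 FPKM in the control libraries and at 21.8, 22.2 and 22.1 FPKM in those labelled Smyd4 shRNA. The libraries labelled Smyd4 shRNA were the higher ones without overlap in each case, by the least margin for E2f5, where control replicate 2 stood above the other two. E2f4 rose by 14.4% (log2 change 0.19, standard error 0.03, limma adjusted p = 0.000771), E2f5 by 13.3% (log2 change 0.17, standard error 0.05, limma adjusted p = 0.0235), and E2f6 by 8.39% (log2 change 0.11, standard error 0.03, limma adjusted p = 0.00752). Their sum was 64.2 ± 1.08 and 72.2 ± 0.431 FPKM. The E2f5 call was lost without control replicate 1 (adjusted p = 0.0782), control replicate 3 (0.0711), or replicate 2 (0.0687) or 3 (0.0643) of the libraries labelled Smyd4 shRNA, and with no filter on low values (0.0581). DESeq2 gave adjusted p = 0.108 for E2f5 and 0.0997 for E2f6.

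The atypical E2Fs, E2f7 and E2f8, bind DNA without a DP partner and repress E2F targets in late S phase. Neither passed the test. E2f7 (chr10:110745439-110787384, plus strand) stood at 6.69, 6.40 and 6.47 FPKM in the control libraries and at 6.62, 6.73 and 6.77 FPKM in those labelled Smyd4 shRNA. E2f8 (chr7:48866429-48881596, minus strand) stood at 14.04, 13.7 and 13.3 FPKM in the control libraries and at 14.4, 14.6 and 14.6 FPKM in those labelled Smyd4 shRNA. E2f7 values overlapped and E2f8 values did not. Their adjusted p were 0.418 and 0.0576 (limma), with log2 changes of 0.04 and 0.08.

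Of the pocket proteins, which hold E2Fs in check, Rbl1 (p107) is the one typical of dividing cells and Rbl2 (p130) of resting cells. Rbl1 (chr2:157145893-157204534, minus strand) stood at 15.9, 15.6 and 15.5 FPKM in the control libraries and at 16.5, 17.6 and 17.1 FPKM in those labelled Smyd4 shRNA. Rbl2 (chr8:91070057-91123844, plus strand) stood at 6.21, 6.40 and 6.35 FPKM in the control libraries and at 4.67, 4.77 and 5.01 FPKM in those labelled Smyd4 shRNA. In neither gene did the groups overlap, Rbl1 being high and Rbl2 low in the libraries labelled Smyd4 shRNA. Rbl2 fell by 23.8% (log2 change -0.36, standard error 0.04, limma adjusted p = 0.000241). Rbl1 rose by 9.07% (log2 change 0.12, standard error 0.03, limma adjusted p = 0.0167). That call was lost when control replicate 2 (adjusted p = 0.0529) or replicate 2 of those labelled Smyd4 shRNA (0.0566) was left out. Rb1, the retinoblastoma gene itself, had means of 5.34 ± 0.236 FPKM in control and 5.52 ± 0.308 in the libraries labelled Smyd4 shRNA (adjusted p = 0.537). The 3 summed to 27.3 ± 0.331 and 27.4 ± 0.878 FPKM, in which Rbl1 made up 57.3 ± 0.613% and 62.3 ± 1.02%, and Rbl2 23.1 ± 0.531% and 17.6 ± 0.472% (SD, n = 3).

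**Figure D3:**
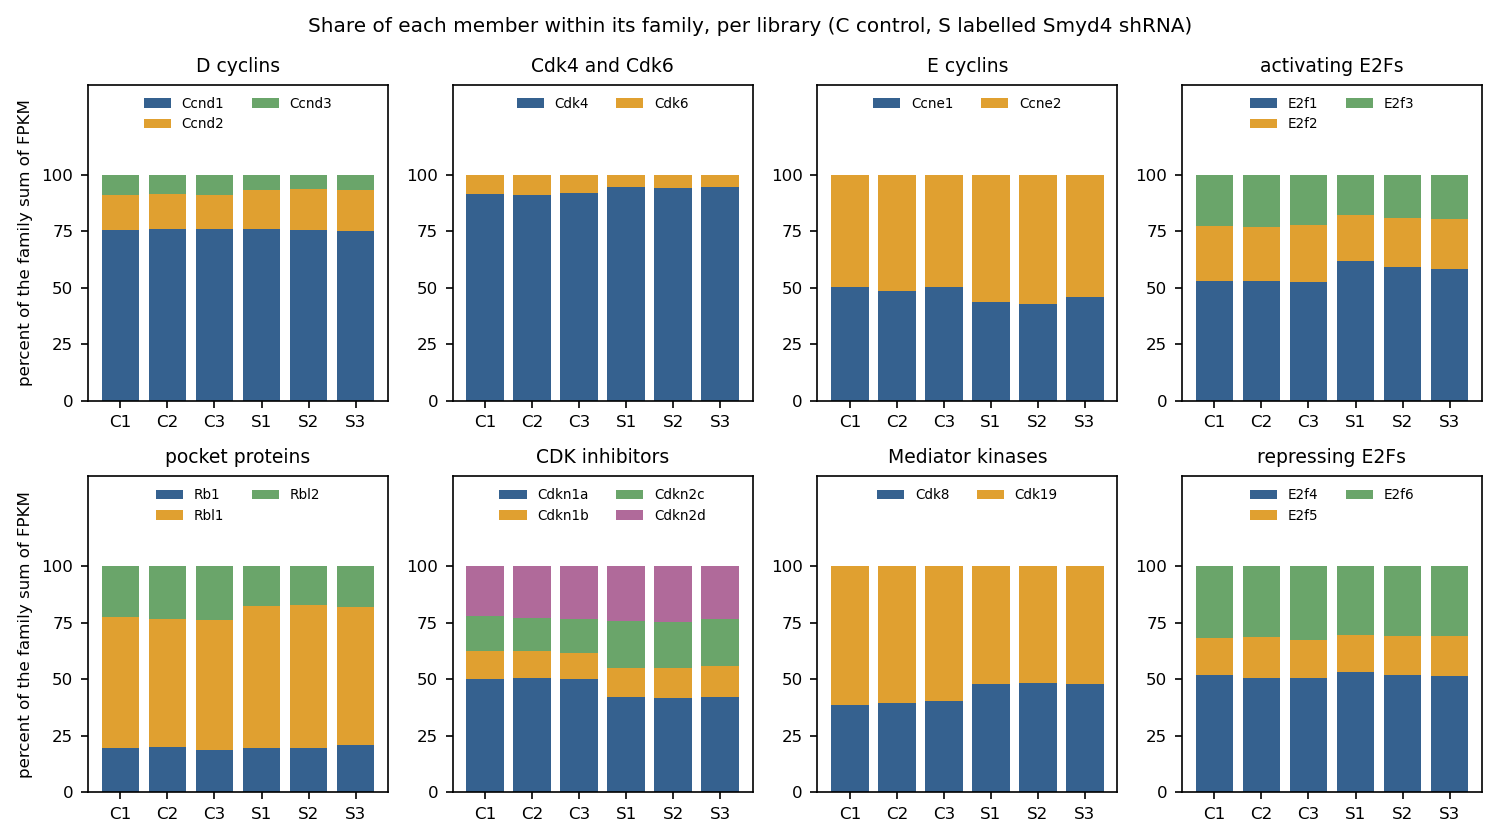
Share of each gene in the summed FPKM of its family (y axis, percent), one bar per library (C1 to C3 control, S1 to S3 labelled Smyd4 shRNA). The share of E2f1 among the activating E2Fs and that of Rbl1 among the pocket proteins are higher in S1 to S3, at 59.9% and 62.3% on average, and those of Ccnd3, Cdk6, Rbl2, Cdkn1a and Cdk19 are lower.

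CDKs and cyclins of transcription phosphorylate RNA polymerase II or sit in Mediator. Of 13 tested, 1 was called higher and 4 lower. Cdk19 (chr10:40349308-40483818, plus strand) stood at 12.1, 11.4 and 10.97 FPKM in the control libraries and at 8.46, 8.61 and 8.41 FPKM in those labelled Smyd4 shRNA. Cdk13 (chr13:17715962-17805097, minus strand) stood at 10.5, 10.2 and 10.2 FPKM in the control libraries and at 8.92, 9.63 and 8.85 FPKM in those labelled Smyd4 shRNA. Cdk7 (chr13:100697027-100730942, minus strand) stood at 5.35, 5.38 and 5.46 FPKM in the control libraries and at 4.87, 4.93 and 4.74 FPKM in those labelled Smyd4 shRNA. These 3 kinases were low in the libraries labelled Smyd4 shRNA, with no overlap. Cdk19, a Mediator kinase, fell by 26.1% (log2 change -0.41, standard error 0.04, limma adjusted p = 9.37e-05). Cdk13, a kinase of transcript elongation, fell by 11.4% (log2 change -0.17, standard error 0.04, limma adjusted p = 0.0109). Cdk7, the kinase of TFIIH that also activates other CDKs, fell by 10.2% (log2 change -0.14, standard error 0.04, limma adjusted p = 0.0175). The Cdk7 call was lost under quantile normalization (adjusted p = 0.0593), and when control replicate 3 (0.053) or replicate 3 of those labelled Smyd4 shRNA (0.0532) was left out.

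Ccnk (chr12:108179738-108203359, plus strand) stood at 15.3, 15.9 and 15.2 FPKM in the control libraries and at 17.8, 16.4 and 17.3 FPKM in those labelled Smyd4 shRNA. Ccnk, the cyclin partner of Cdk12 and Cdk13, was thus higher in each library labelled Smyd4 shRNA than in any control library. Ccnk rose by 11.3% (log2 change 0.15, standard error 0.04, limma adjusted p = 0.0136). Ccnt1, the cyclin of the elongation kinase Cdk9, had means of 10.2 ± 0.221 FPKM in control and 9.32 ± 0.0732 in the libraries labelled Smyd4 shRNA and passed as lower (adjusted p = 0.0153), but not without control replicate 2 (0.0585). Cdk8, which takes the place of Cdk19 in Mediator, had means of 7.53 ± 0.0908 FPKM in control and 7.91 ± 0.188 in the libraries labelled Smyd4 shRNA (adjusted p = 0.150), so Cdk19 was 60.4 ± 0.883% of the 2 Mediator kinases in control and 51.8 ± 0.296% in the libraries labelled Smyd4 shRNA (SD, n = 3). The other 7 did not pass. Means of control and labelled libraries were 17.7 and 16.3 FPKM for Cdk9, 7.61 and 7.63 FPKM for Cdk12, 8.32 and 8.06 FPKM for Ccnc and 10.4 and 11.2 FPKM for Ccnh (adjusted p = 0.0884, 0.959, 0.350 and 0.0707). Means of control and labelled libraries were 8.57 and 8.99 FPKM for Ccnl1, 15.4 and 14.4 FPKM for Ccnl2 and 4.74 and 4.93 FPKM for Ccnt2 (adjusted p = 0.329, 0.0962 and 0.463). Of these, only Ccnl2 had groups that did not overlap.

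Of the other cyclins, the G cyclins and cyclin I belong to a branch tied to stress responses and differentiated cells. All 3 were called lower, while Ccnj, Ccnq and Ccny did not pass. Means of control and labelled libraries were 1.45 and 1.49 FPKM for Ccnj, 13.1 and 13.4 FPKM for Ccnq and 22.3 and 21.9 FPKM for Ccny (adjusted p = 0.741, 0.577 and 0.522), with overlapping groups for each. Ccng1 (chr11:40748552-40755311, minus strand) stood at 84.1, 86.7 and 85.7 FPKM in the control libraries and at 64.9, 63.1 and 66.8 FPKM in those labelled Smyd4 shRNA. Ccng2 (chr5:93267257-93276231, plus strand) stood at 7.47, 7.25 and 7.60 FPKM in the control libraries and at 4.47, 4.73 and 4.48 FPKM in those labelled Smyd4 shRNA. Ccni (chr5:93181933-93206495, minus strand) stood at 64.7, 65.6 and 64.96 FPKM in the control libraries and at 58.7, 57.4 and 57.2 FPKM in those labelled Smyd4 shRNA. Each stood lower in every library labelled Smyd4 shRNA than in any control library. Ccng2 had the largest change of all members and fell by 38.7% (log2 change -0.65, standard error 0.04, limma adjusted p = 7.43e-06). Ccng1, a p53 target, fell by 24.1% (log2 change -0.39, standard error 0.03, limma adjusted p = 1.73e-05). Ccni fell by 11.3% (log2 change -0.17, standard error 0.02, limma adjusted p = 0.000576).

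The remaining CDKs have roles mostly outside division. Of 7 tested, Cdk16 was called higher and Cdk17 lower, both of the PCTAIRE subfamily. Cdk16 (chrX:20687954-20699880, plus strand) stood at 33.8, 33.3 and 33.2 FPKM in the control libraries and at 35.3, 35.7 and 34.7 FPKM in those labelled Smyd4 shRNA. Cdk17 (chr10:93160876-93241342, plus strand) stood at 16.8, 16.7 and 17.9 FPKM in the control libraries and at 14.6, 16.1 and 15.3 FPKM in those labelled Smyd4 shRNA. Both genes separated the groups, by narrow gaps. Cdk16 rose by 5.44% (log2 change 0.08, standard error 0.02, limma adjusted p = 0.0355), a call that was lost under 10 of 15 alternatives (adjusted p up to 0.108). Cdk17 fell by 10.4% (log2 change -0.15, standard error 0.04, limma adjusted p = 0.0213), a call lost when control replicate 3 was left out (0.0675) or replicate 1 of those labelled Smyd4 shRNA (0.065). Cdk5, a kinase best known from neurons, had means of 20.2 ± 0.514 FPKM in control and 18.97 ± 0.470 in the libraries labelled Smyd4 shRNA (adjusted p = 0.0572). Its activator gene Cdk5r1 is given with the regulators. Nor did 4 others pass. Means of control and labelled libraries were 10.03 and 10.6 FPKM for Cdk10, 3.77 and 3.95 FPKM for Cdk14, 10.2 and 10.8 FPKM for Cdk18 and 6.20 and 6.06 FPKM for Cdk20 (adjusted p = 0.220, 0.340, 0.0600 and 0.700). Of these 4, only Cdk18 had groups that did not overlap.

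**Figure D4:**
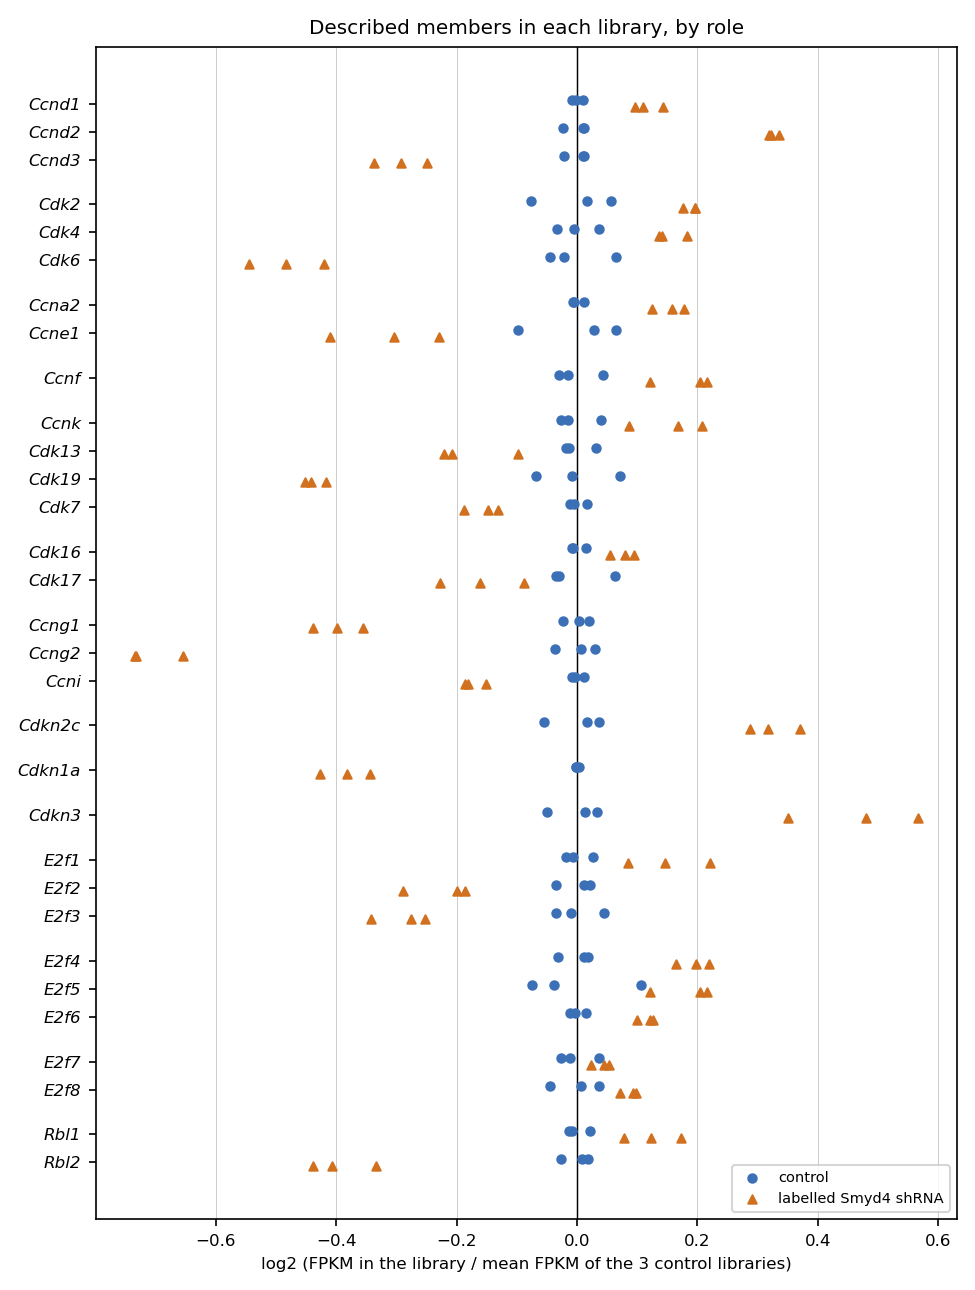
FPKM in each library relative to the mean of the 3 control libraries (x axis, log2), for the 31 members described with every library, grouped by role. Circles are control libraries and triangles those labelled Smyd4 shRNA. Triangles and circles overlap for E2f7 alone, and Ccng2 lies farthest to the left.

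Genes around the members were counted in lists of partners and targets. Among 28 tested partners and regulators, 9 were higher and 5 lower, with a median log2 change of 0.03. Cdk5r1, the activator p35 of Cdk5, rose from 1.91 to 3.61 FPKM (log2 change 0.77, standard error 0.06, limma adjusted p = 3.28e-05). Pkmyt1, an inhibitory kinase of Cdk1, rose from 9.77 to 11.4 FPKM (log2 change 0.22, standard error 0.04, limma adjusted p = 0.00177). Tfdp2, a DP partner of the E2Fs, fell from 2.51 to 1.96 FPKM (log2 change -0.29, standard error 0.06, limma adjusted p = 0.00670). Cul1, the scaffold of SCF ligases, fell from 33.4 to 30.1 FPKM (log2 change -0.15, standard error 0.03, limma adjusted p = 0.00177). The share called was 50%, against 48.3% of all tested genes. Neuronal marker sums, which were lower in the libraries labelled Smyd4 shRNA, moved opposite to Cdk5r1. A link between these sums and Cdk5r1 was not tested.

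S phase genes known as E2F targets were called as higher in 20 of 29 tested and as lower in none, with a median log2 change of 0.17. For all tested genes, 25.1% were called higher and 23.3% lower, and the median was 0.02. The S phase list and that of G2 and mitosis were chosen with earlier results known. Their counts are not independent evidence of a direction. Mcm5, a subunit of the replicative helicase, rose from 54.03 to 69.9 FPKM (log2 change 0.37, standard error 0.03, limma adjusted p = 4.29e-05). Ung, which removes uracil from DNA, rose from 2.25 to 3.11 FPKM (log2 change 0.39, standard error 0.06, limma adjusted p = 0.00158). Of 30 genes of G2 and mitosis, 14 were higher and 3 lower, with a median of 0.08. Bora, an activator of Aurora A, rose from 11.9 to 16.7 FPKM (log2 change 0.47, standard error 0.04, limma adjusted p = 3.08e-05), and Ect2, a cytokinesis exchange factor, from 33.4 to 41.6 FPKM (log2 change 0.31, standard error 0.04, limma adjusted p = 0.000217). Kif20a, a cytokinesis kinesin, fell from 45.6 to 37.6 FPKM (log2 change -0.28, standard error 0.03, limma adjusted p = 9.24e-05), and Cenpa, the centromere histone, from 28.01 to 24.6 FPKM (log2 change -0.19, standard error 0.03, limma adjusted p = 0.00101).

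Of all tested genes, 25.1% were called higher and 23.3% lower. Among known p53 targets other than the members, 2 of 18 tested were called higher and 11 lower, with a median log2 change of -0.40. Like the other related lists, this list was chosen with earlier results known, so its count is not independent evidence of a direction. It held neither Cdkn1a nor Ccng1, which also fell. Pmaip1, a death-promoting BH3 gene, stood at 3.25, 3.54 and 3.65 FPKM in the control libraries and at 0.391, 0.538 and 0.329 FPKM in those labelled Smyd4 shRNA, with no overlap. It fell from 3.48 to 0.419 FPKM (log2 change -2.12, standard error 0.10, limma adjusted p = 1.85e-06). The log2 change depends on the pseudocount at such low values: it was -2.81 with 0.1 FPKM, -1.66 with 1 FPKM, and -3.04 by edgeR and by DESeq2 on recovered reads. Fas, a death receptor, fell from 4.68 to 0.774 FPKM (log2 change -2.03, standard error 0.11, limma adjusted p = 2.8e-06), with -2.47 and -1.68 at those pseudocounts and -2.58 by both count tests. Sesn2 and Sesn1, stress-responsive sestrins, went the other way. Sesn2 rose from 18.4 to 23.1 FPKM (log2 change 0.33, standard error 0.04, limma adjusted p = 0.000296). Sesn1 rose from 13.5 to 14.8 FPKM (log2 change 0.13, standard error 0.04, limma adjusted p = 0.0440), a call lost under 8 of 15 alternatives (adjusted p up to 0.125).

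**Figure D5:**
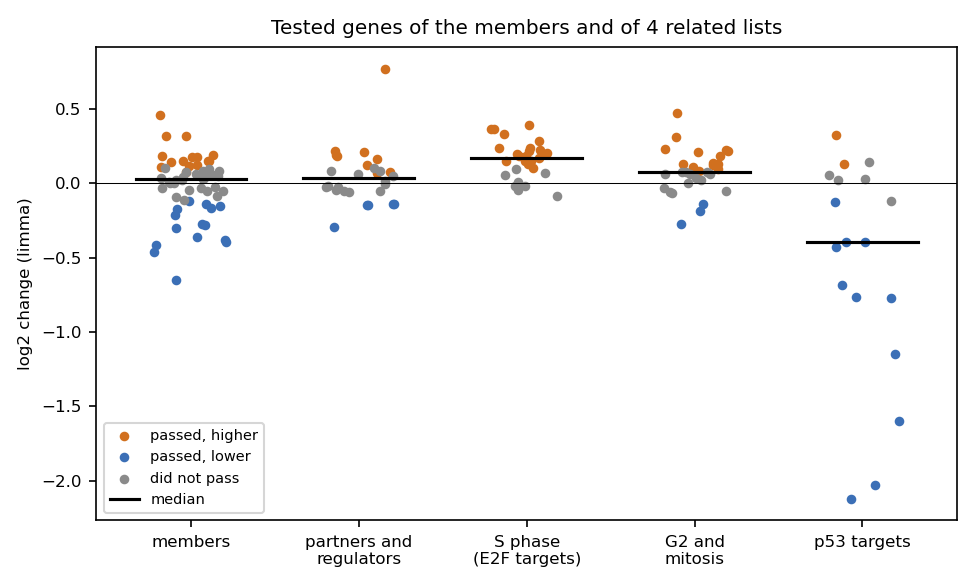
Log2 change (y axis, limma) of each tested gene among the 58 members and in 4 related lists, with the median as a bar. The medians are 0.03 for the members, 0.03 for partners and regulators, 0.17 for S phase genes, 0.08 for genes of G2 and mitosis and -0.40 for p53 targets.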

How the data were processed

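Per the labels' protocols, RNA was taken with Trizol and sequenced from Illumina libraries. The submitters' processing notes name TopHat2 2.0.9, Bowtie2 2.0.6 and GRCm38. The counter, annotation and strand setting were not given in the sources used here. FPKM for 22246 genes are as the authors deposited them, and 22134 of these genes matched a symbol in GENCODE M21. The authors' deposited comparison table of 5616 genes holds a normalized signal (read count divided by a size factor), log2 fold changes, p-values and adjusted p-values up to 0.0499. FPKM times length over that signal was the constant 41.573, so FPKM was scaled by size factors. In each library 100% of the signal values were whole multiples of 1 step (tolerance 1e-04), and FPKM gave whole reads (tolerance 0.01) with lengths from the authors (5616 genes), the annotation (6781) or the smallest possible (9849, reads then lower bounds). Totals were 23413892 to 25266949 reads in control and 20755024 to 26387004 in the libraries labelled Smyd4 shRNA.

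Log2(FPKM + 0.5) was fitted for genes averaging 1 FPKM or more with limma 3.58.1 (trend, no covariates, R 4.3.3), and p-values were adjusted by Benjamini-Hochberg over 11325 genes. Fold changes are on that scale and understate low genes. On simulated data the fit called 28 of 50 genes changed 1.25-fold and 47 of 50 changed 1.5-fold, with 13 false calls. The spread between simulated libraries was set beforehand, so rates in these data may differ. Alternatives used other pseudocounts, filters, scalings, a replicate block, each library left out, edgeR 4.0.16 (TMM) and DESeq2 1.42.0 on recovered reads. In each of 14 role lists, up to 4 called members with the largest absolute change were described, or the 2 most abundant where none was called. Up to 2 genes per direction were named in each related list. Members and lists were chosen with earlier results of these data known. Cell type marker lists were cardiomyocyte, skeletal muscle, fibroblast, smooth muscle, endothelial, macrophage and neuron. Shares and sums of FPKM are descriptions without a test.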

Additional observations from a re-analysis of the deposited data

How the results depend on the processing

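Across 15 alternatives the number of members called higher lay between 12 and 17 and called lower between 13 and 17, within 1.5 times the reported counts, as did the number of all genes called. Leaving out 1 library at a time gave 4536 to 4993 genes, 13 to 14 members higher and 13 to 16 lower, and log2 changes of -0.0967 to -0.0402 for Smyd4, which passed under no alternative. Replicate numbers did not pair the libraries: same-numbered libraries deviated with correlations of -0.03, 0.02 and 0.01, and the best match of control replicate 3 was replicate 1 of the other group (0.05). With the replicate block 5141 genes passed, with 14 members higher and 15 lower, and Smyd4 kept -0.0717. Of the 30 called members, 23 kept their call and direction in every alternative run, 7 (Ccnt1, Cdk16, Cdk17, Cdk7, E2f5, E2f6, Rbl1) lost the call in at least 1, and 0 reversed. Under the block Cdk16 lost its call (adjusted p = 0.0717). Of the 28 uncalled, 6 (Ccnh, Ccnl2, Cdk18, Cdk5, Cdk9, E2f8) gained a call in at least 1.

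7 uncalled members changed sign around 0, and the cause was not tested. Under median-of-ratios scaling the log2 change was -0.0016 for Ccne2, -0.0052 for Cdc25c and -0.0073 for Cdk12, and under quantile normalization 0.0066 for Cdk20. By edgeR it was -0.0021 for Cdc25c and -0.0015 for Cdk12. Leaving out 1 library gave -0.0096 to 0.0457 for Cdkn1b, -0.0068 to 0.0266 for Ccne2, -0.0008 to 0.0371 for Ccnb2, -0.0572 to 0.0631 for Cdc25c, -0.0133 to 0.0818 for Ccnq, -0.0988 to 0.0112 for Cdk20 and -0.0356 to 0.0321 for Cdk12. The 4 members under 1 FPKM were left out of the limma test by the filter.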
